A study of Rattus norvegicus with 12 samples.

Results

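The comparison described here is that of MCI-186 with saline in the cerebral cortex of uninjured rat pups: 6 of the series' 12 arrays, chosen by their labels as control animals. MCI-186, also called edaravone, is an antioxidant of the pyrazolone class. The 3 MCI-186 controls were Wistar pups given 9 mg/kg of the drug in saline into the peritoneum, and the 3 saline controls were Wistar pups given 100 µl of saline by the same route. None of these 6 animals had the carotid ligation and 1 h of hypoxia (8% oxygen) that injured the other 6, of which 3 received MCI-186 and 3 saline. All pups were 7 days old at the start and are labelled 2 weeks of age. The series had 3 pups per group, as many as arrays, and the cortex came from the side that was ligated in the injured animals. The sex of the pups, the time from injection to collection, and whether controls had the second injection that injured pups received after 30 min are not given in the sources used here. None of the 7 sex-linked genes looked up had a named probe.

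MCI-186 is a scavenger of free radicals, in particular of hydroxyl and lipid peroxyl radicals, and is used as a neuroprotective drug. In tissue with no ischaemic burst of radicals, the comparison asks how the transcriptome of cortex given the drug differs from that of cortex given its vehicle. Cells hold radicals in check with enzymes such as superoxide dismutases, catalase, peroxiredoxins and the glutathione system, many of them controlled by the transcription factor NRF2. Immediate early genes are a separate group, switched on in neurons within minutes of synaptic activity and in other cells by growth factors or stress, through factors such as CREB and SRF that are already present before the stimulus.

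The arrays were Agilent 1-colour rat arrays, read from the scanner's processed signal. All values below are log2 signals relative to the 75th percentile of their own array, and all differences are MCI-186 minus saline on that scale. Arrays of a group shared 1 slide and no group shared a slide with another, which means that treatment and slide cannot be told apart. The 75th percentile of signal was 965 to 983 on the MCI-186 arrays and 920 to 1138 on the saline arrays, and 65.1% to 69.7% against 68.3% to 70.7% of spots were well above background. Arrays of the MCI-186 group correlated with each other at 0.9951 to 0.9961. In the saline group, replicates 1 and 2 correlated at 0.9944, and saline replicate 3 stood apart at 0.9875 and 0.9897. The median standard deviation between arrays was 0.07 in the MCI-186 group and 0.15 in the saline group. All 12 excitatory neuron genes with a named probe were measured, with mean levels of 1.69 to 1.70 on MCI-186 arrays and 1.65 to 1.70 on saline arrays. Of the genes with a named probe, 11 of 12 in the striatum list and 6 of 6 in the thalamus list were measured too. Being measured therefore does not tell cortex from other brain regions.

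A probe counted as measured where every array of the MCI-186 controls, or every array of the saline controls, had it well above background, which left 24505 features: 8874 named genes and 15631 probes without a gene name here. With limma, 33 features passed an adjusted p of 0.05, or 0.135% of those tested, and among named genes 15 did (0.169%). Of the 15 genes, 5 rose with MCI-186 (0.0563% of genes) and 10 fell (0.113%). Of these genes, Aipl1 was measured through the MCI-186 controls alone, and Asb5, Ccl22, Fbxl7, Nfe2 and Or2w6 through the saline controls alone. The filter thus favoured a difference in them, which their p-values do not allow for. With probes well above background on all 6 control arrays, 9 of the 15 were tested and 7 were called. The unnamed probes that passed among the 24505 features were 2 higher and 16 lower, some of them likewise measured through the brighter group alone. At an unadjusted p under 0.05, 716 genes stood out, or 8.07%. The p-values measure the spread between pups of single slides. In contrast to this short list, the groups did not overlap for 2499 genes, 28.2% of all, with 16.8% higher and 11.4% lower in MCI-186 controls. In injured cortex the same share was 4.15%. The injured arrays spread more widely, with a median standard deviation of 0.20 with MCI-186 and 0.18 with saline. Overlap depends on the spread within groups as well as on the difference, so the 2 shares do not compare the size of the differences. Why the shares differ was not tested.

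The 5 genes that rose were Aipl1, Ccn1, Btg2, Ier2 and Gadd45g, and of these Ier2 and Btg2 are in the immediate early and activity list. Ier2, an immediate early nuclear protein, had levels of 3.96, 4.17 and 3.96 in MCI-186 controls, against 2.84, 2.89 and 2.87 in saline controls. Each MCI-186 array lay above each saline array, and the difference was 1.17 ± 0.12 (SE, n = 3 per group), a 2.24-fold rise with a limma adjusted p of 0.00262. Btg2, an antiproliferative gene induced early by growth factors, neuronal activity and p53, had levels of 2.07, 2.25 and 2.19, against 0.99, 0.78 and 0.81 in saline controls. Its difference of 1.31 ± 0.14 corresponded to 2.48-fold (adjusted p = 0.00544).

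Ccn1, a secreted matrix-associated protein also known as Cyr61 and an immediate early gene in many cells, had levels of -2.55, -1.89 and -1.89 in MCI-186 controls and -3.95, -4.17 and -4.05 in saline controls. The groups lay well apart, with a difference of 1.94 ± 0.25 (adjusted p = 0.0123), and a second Ccn1 probe differed by 2.13 in the same direction. Gadd45g, a stress-inducible growth arrest gene that neurons also induce on activity, had levels of 3.64, 3.61 and 3.58 in MCI-186 controls, against 2.78, 2.87 and 2.78 in saline controls. This was a small but narrow difference of 0.80 ± 0.12 (adjusted p = 0.0359). The calls of Ier2 and Btg2 held under all 18 alternatives tried. Gadd45g lost its call when any 1 of the 6 arrays was left out (adjusted p of 0.0984 to 0.162). Ccn1 lost its call without MCI-186 replicate 2 (adjusted p = 0.0688), without MCI-186 replicate 3 (0.0576) or without saline replicate 2 (0.0628).

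The promoters of Ier2, Btg2, Ccn1 and Gadd45g, 4 of the 5 genes that rose, are shown. The cAMP response element TGACGTCA, to which CREB binds, is a textbook feature of immediate early promoters. Each window is the 250 bases before the annotated start, from RefSeq on GRCr8. The chromosomes are 19 for Ier2, 13 for Btg2, 2 for Ccn1 and 17 for Gadd45g, and the decimal in the labels below is only a number format. Capitals mark the element TGACGTCA, or its half-site TGACG where the full element is absent, on either strand.
Ier2, chr19.0:40399123-40399372, plus strand: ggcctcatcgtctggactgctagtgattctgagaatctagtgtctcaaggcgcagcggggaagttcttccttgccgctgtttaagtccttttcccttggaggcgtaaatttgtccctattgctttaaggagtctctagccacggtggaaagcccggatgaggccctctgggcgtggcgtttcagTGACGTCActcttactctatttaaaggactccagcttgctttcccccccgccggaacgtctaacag
Btg2, chr13.0:48087691-48087940, minus strand: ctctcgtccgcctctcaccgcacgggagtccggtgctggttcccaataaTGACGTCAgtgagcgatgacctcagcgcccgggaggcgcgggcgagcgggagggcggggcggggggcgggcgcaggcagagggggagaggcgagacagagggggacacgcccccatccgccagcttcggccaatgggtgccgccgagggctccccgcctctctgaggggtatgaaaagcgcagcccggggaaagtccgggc
Ccn1, chr2.0:237225690-237225939, minus strand: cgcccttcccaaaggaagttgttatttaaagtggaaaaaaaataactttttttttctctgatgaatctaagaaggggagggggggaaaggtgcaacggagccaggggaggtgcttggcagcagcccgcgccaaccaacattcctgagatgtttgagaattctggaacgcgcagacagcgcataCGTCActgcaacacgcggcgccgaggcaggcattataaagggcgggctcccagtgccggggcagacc
Gadd45g, chr17.0:13530352-13530601, minus strand: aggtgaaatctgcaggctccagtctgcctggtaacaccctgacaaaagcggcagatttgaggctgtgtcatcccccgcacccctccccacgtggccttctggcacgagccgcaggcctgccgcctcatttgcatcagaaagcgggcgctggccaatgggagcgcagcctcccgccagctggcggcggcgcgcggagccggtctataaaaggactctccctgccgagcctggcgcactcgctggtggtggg
Ier2 and Btg2 each held 1 full element, starting 66 and 201 bases before the start. Ccn1 held 1 half-site, 67 bases before it on this count, and Gadd45g held neither in this window. Aipl1, the other gene that rose, held neither, and Fbxl7, which fell, held 1 half-site. Of the 33465 rat promoter windows of this length, 531 (1.59%) held the full element and 6097 (18.2%) held the half-site, which every full element contains. A single window was found for 14 of the 22 measured immediate early and activity genes, and 4 of these held the full element (Btg2, Dusp1, Ier2 and Jund) and 9 the half-site. The serum response element, the CArG box bound by SRF, was found in 1 of the 14 (Egr2), against 1.5% of all windows. Jund was lower in MCI-186 controls, and Npas4, with the widest rise of the list, held neither the full element nor the half-site. A match of letters is a description and not a site of binding, and a link to the rises was not tested.

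**Figure D1:**
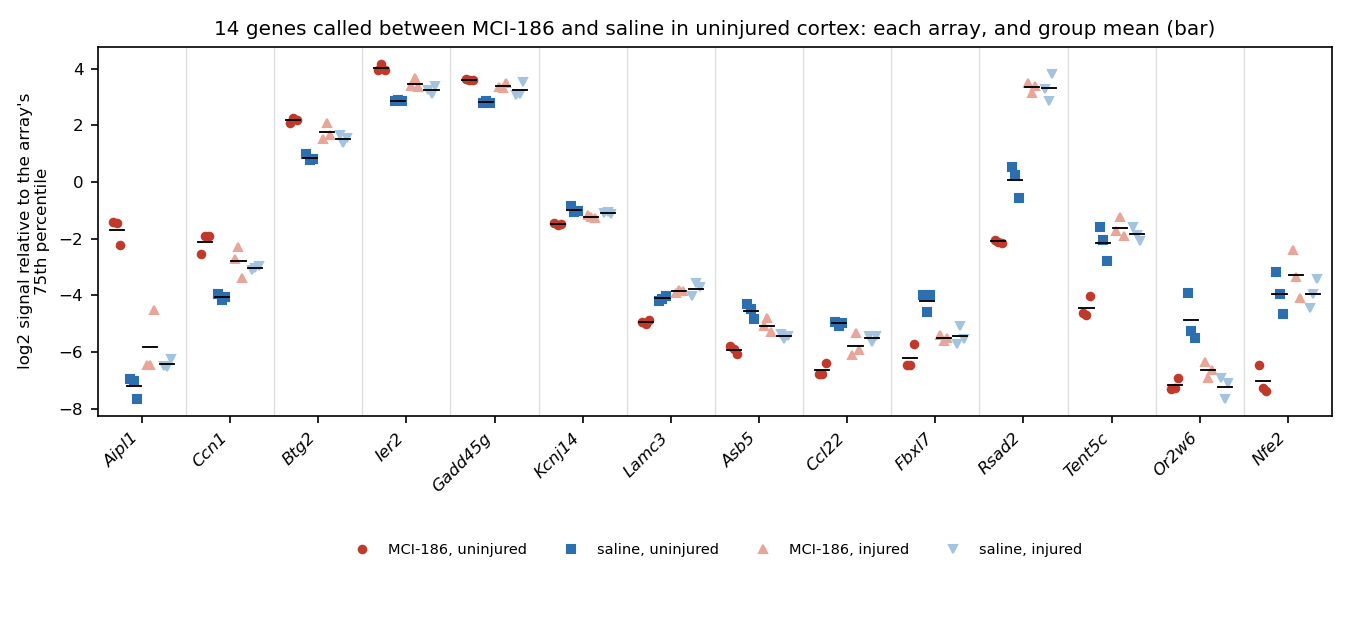
Log2 signal relative to the array's 75th percentile (vertical axis) of 14 of the 15 called genes on every array, ordered by the difference in uninjured cortex. Points are single arrays, 3 per group, and bars are group means. Red MCI-186 points lie clear of the blue saline points for each gene, and the paler injured arrays show smaller gaps between treatments or none. Aipl1 spans the widest gap drawn (5.50), with its saline controls not well above background.

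The immediate early and activity list held 24 genes, of which 22 were measured. Members of this and the other lists were chosen with earlier results of these data known. The shares over all genes set beside them do not allow for that choice. Only Ier2 and Btg2 passed the adjusted threshold, yet 20 of the 22 differences were above 0, against 53.2% of all genes, with a median of 0.58 against 0.01 over all features. At an unadjusted p under 0.05, 16 members were higher, against 4.56% of all genes, and 0 were lower. The groups did not overlap for 17 members with MCI-186 higher, against 16.8% of genes, and for 1 member, Jund, with saline higher. The mean level of the list was 1.20, 1.32 and 1.16 on the MCI-186 arrays and 0.26, 0.50 and 0.62 on the saline arrays.

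The members with the widest differences, Npas4, Arc and Nr4a1, missed the threshold. Npas4, a transcription factor that neurons induce on calcium entry, was at -3.64, -3.61 and -3.61 in MCI-186 controls and at -6.10, -5.53 and -5.47 in saline controls, a difference of 2.08 ± 0.44 (adjusted p = 0.131). Nr4a1, a nuclear receptor induced by activity, had levels of 5.61, 5.73 and 5.43, against 3.84, 4.12 and 4.43 in saline controls (1.46 ± 0.33, adjusted p = 0.160). Arc, a synaptic protein whose mRNA travels to active dendrites, had levels of 4.85, 5.01 and 4.66, against 2.79, 3.15 and 3.47 in saline controls (1.70 ± 0.41, adjusted p = 0.190). For all 3 genes the MCI-186 arrays lay closer together than the saline arrays, and the groups did not overlap.

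Among the AP-1 subunits, Junb differed by 1.10 ± 0.23 (adjusted p = 0.135), Fos by 0.99 ± 0.27 (adjusted p = 0.244) and Fosl2 by 0.38 ± 0.13, and their groups did not overlap. Fos had levels of 1.84, 1.86 and 1.57 in MCI-186 controls and 0.23, 0.77 and 1.31 in saline controls, so its saline arrays covered a wide range. Jun, with -0.01 ± 0.14, and Jund, with -0.19 ± 0.17, lay at or below 0. Dusp1, a phosphatase that switches off MAP kinases, differed by 1.33 ± 0.38, and its relative Dusp6 by 0.34 ± 0.11. Atf3, a stress-induced factor, differed by 1.05 ± 0.28, with MCI-186 arrays at -2.67, -1.79 and -2.38 and saline arrays at -3.39, -3.36 and -3.25. Bdnf, the neurotrophin, differed by 0.37 ± 0.21 and Homer1, a synaptic scaffold, by 0.02 ± 0.24. In a fit to the 6 control arrays alone, where the spread of the injured arrays plays no part, 24 genes were called and 9 of the 15 kept their calls, while Rsad2, Tent5c, Nfe2, Fbxl7, Or2w6 and Kcnj14 had adjusted p of 0.0692 to 0.101. That fit called 5 members of the list, adding Npas4 (adjusted p = 0.0176), Arc (0.0452) and Nr4a1 (0.0483). It also called Csrnp1, an immediate early gene outside the list named after its value was seen, at 0.77 ± 0.08 (adjusted p = 0.0410).

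**Figure D2:**
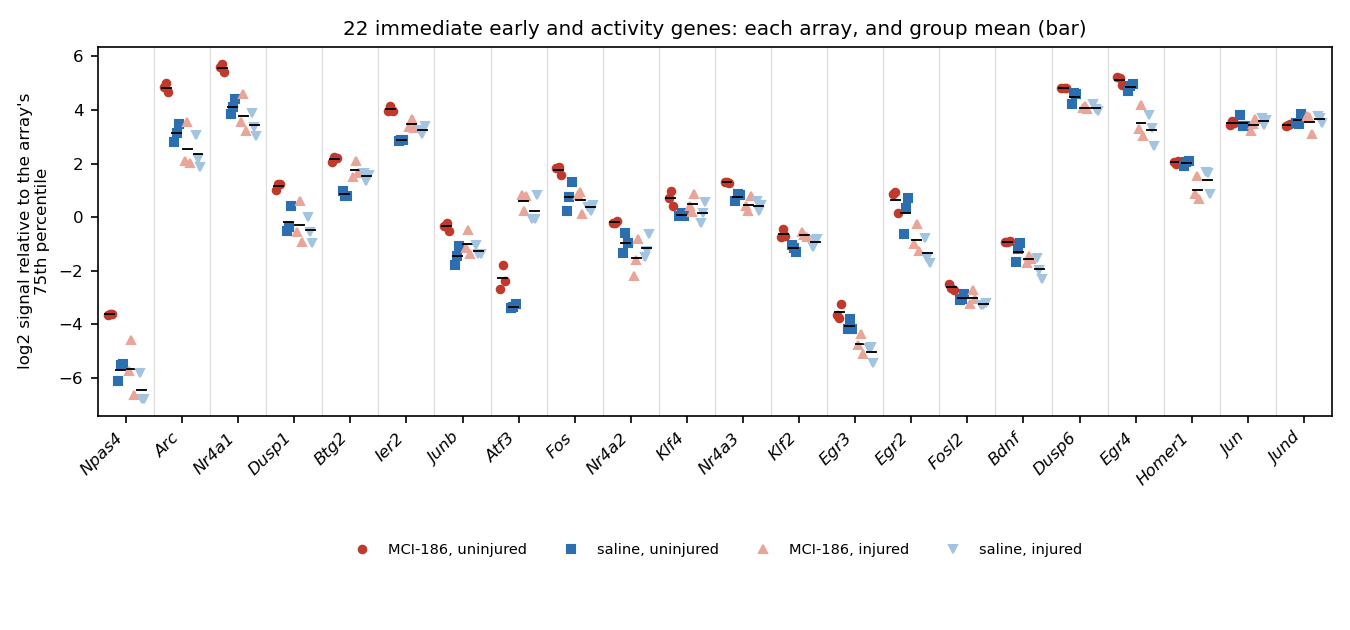
Log2 signal relative to the array's 75th percentile (vertical axis) of the 22 measured immediate early and activity genes on every array, ordered by the difference in uninjured cortex. Points are single arrays, 3 per group, and bars are group means. In uninjured cortex all MCI-186 points lie above all saline points for 17 of the 22 genes, with the widest gap for Npas4 at the left (2.08), and little or no gap for Egr4, Homer1, Jun and Jund at the right.

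The fifth gene that rose was Aipl1, a chaperone for the phosphodiesterase of photoreceptors, known from retina and pineal gland. Its levels were -1.42, -1.43 and -2.23 in MCI-186 controls, and -6.94, -7.00 and -7.64 in saline controls. It was not well above background on any saline control array, so the rise is given as at least 17.4-fold (fitted difference 5.50 ± 0.46, adjusted p = 0.00096). Its probe was kept through the MCI-186 controls alone, which the adjusted p does not allow for. On the injured arrays Aipl1 was well above background on 1 of 3 with MCI-186 (-4.52, the others -6.46 each) and on 0 of 3 with saline. Of the 15 genes in the photoreceptor and pineal list, only 4 were measured in control cortex. The defining genes Crx, Sag, Gnat1, Pde6b, Nrl and Rcvrn were not well above background on all 3 arrays of either group. Aanat, the pineal enzyme of melatonin synthesis, had levels of -4.06, -4.12 and -3.69 in MCI-186 controls and -3.69, -3.67 and -2.77 in saline controls, a difference of -0.58 ± 0.25 (adjusted p = 0.551). Prph2, at 0.14 ± 0.21, and Rom1, at 0.00 ± 0.21, differed by less than their errors. Only 1 Aipl1 probe is on the array.

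The genes that fell are of mixed function, and they fall into groups by where the injured arrays lie. Rsad2, the interferon-induced antiviral protein viperin, had levels of -2.04, -2.10 and -2.14 in MCI-186 controls and 0.54, 0.23 and -0.55 in saline controls. The difference was -2.16 ± 0.27, a 4.48-fold fall (adjusted p = 0.0123), and a second, dimmer probe was not well above background in MCI-186 controls and differed by -3.57. Both injured groups stood far above, at 3.33 on average. Rsad2 was the only one of 18 measured interferon-response genes that was called, and the list's median was -0.09, with 5 members above 0, against 53.2% of all genes. Ifi44 (-0.43 ± 0.24), Irf7 (-0.56 ± 0.36) and Bst2 (-0.39 ± 0.33) had adjusted p-values of 0.699, 0.772 and 0.841, with no overlap between the groups. Over the 18 genes, Rsad2 included, the groups did not overlap for 4 that were lower, against 11.4% of all genes. They did not overlap for 1 that was higher, against 16.8%.

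Tent5c, a cytoplasmic poly(A) polymerase abundant in blood-forming and plasma cells, had levels of -4.60, -4.68 and -4.01 in MCI-186 controls and -1.59, -2.06 and -2.79 in saline controls. It fell by 2.28 ± 0.30 (4.87-fold, adjusted p = 0.0155). Nfe2, a transcription factor of red cell and platelet precursors, had levels of -6.47, -7.25 and -7.36 in MCI-186 controls, where it was not well above background, and -3.17, -3.97 and -4.66 in saline controls. Its fall was at least 3.01-fold (adjusted p = 0.0403). In both genes the 6 injured arrays lay near the saline controls, at -2.07 to -1.22 for Tent5c and -4.45 to -2.40 for Nfe2, and saline replicate 1 was the highest saline control. Tent5c lost its call without MCI-186 replicate 1 (adjusted p = 0.0920), without MCI-186 replicate 2 (0.0824) or without saline replicate 2 (0.0745). Nfe2 kept its call only when saline replicate 3 was the array left out (0.0382, against up to 0.171 for the rest). Rsad2 kept its call only without saline replicate 1 (0.0394) or saline replicate 3 (0.00366), with 0.0574 to 0.0628 for the rest.

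Red blood cell genes lay on the same side. Of the 10 genes in that list 7 were measured, 0 were called, and all 7 differences lay below 0, against 46.8% of all genes, with a median of -1.98. At an unadjusted p under 0.05, 6 were lower, against 3.50% of all genes, and for the same number the groups did not overlap, against 11.4% of genes. The mean level of the 7 genes was 0.07, -0.08 and 0.53 on the MCI-186 arrays, and 2.39, 1.85 and 1.11 on the saline arrays. Hbb, the beta chain of adult haemoglobin, had levels of 2.95, 2.87 and 3.29 in MCI-186 controls and 5.37, 5.25 and 3.70 in saline controls (-1.74 ± 0.62, adjusted p = 0.409). Alas2, the first enzyme of haem synthesis in red cell precursors, had levels of 1.08, 1.12 and 1.75, against 3.84, 3.50 and 2.55 in saline controls (-1.98 ± 0.74, adjusted p = 0.454). Epb42, a red cell membrane protein, differed by -2.04 ± 0.58, and Slc4a1, the anion exchanger of the same membrane, by -2.00 ± 0.66. Ahsp, the chaperone of free alpha globin, was the member whose groups overlapped (-0.61 ± 0.38). The median of the list was -1.50 without saline replicate 1 and -2.29 without saline replicate 3. In bulk tissue, fewer cells of a type and less RNA per cell cannot be told apart, and the part of blood left in the tissue in the falls of Tent5c and Nfe2 was not tested. Among the injured arrays the same mean was -0.05, 2.27 and 0.01 with MCI-186 and 1.24, 1.24 and 0.74 with saline, so it varied between pups of 1 group as much as between groups.

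For Fbxl7 and Or2w6, the mean of the 6 injured arrays lay closer to the MCI-186 controls than to the saline controls, and for Asb5 it lay about midway between them (-5.25). Asb5, an ankyrin repeat protein that recruits ubiquitin ligases, was at -5.79, -5.89 and -6.07 in MCI-186 controls, where it was not well above background, and at -4.29, -4.49 and -4.84 in saline controls, a fall of at least 1.98-fold (adjusted p = 0.00694). Fbxl7, an F-box protein of ubiquitin ligases, and Or2w6, an olfactory receptor, were likewise not well above background in MCI-186 controls and fell by at least 2.41-fold (adjusted p = 0.00706) and at least 1.56-fold (adjusted p = 0.0459).

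Ccl22, a chemokine that attracts T cells through CCR4, was not well above background in MCI-186 controls (-6.76, -6.76 and -6.40) and was at -4.92, -5.07 and -4.95 in saline controls. Its fall was at least 1.45-fold (adjusted p = 0.00544), and the injured arrays lay between the control groups. Lamc3, a laminin chain of basement membranes, fell by 0.84 ± 0.12 (adjusted p = 0.0282). Kcnj14, a potassium channel subunit of neurons, had the smallest call, with levels of -1.45, -1.51 and -1.49 in MCI-186 controls and -0.86, -1.04 and -1.02 in saline controls (-0.51 ± 0.08, adjusted p = 0.0485). Lamc3 (adjusted p of 0.0569 to 0.145) and Kcnj14 (0.0896 to 0.245) lost their calls when any 1 array was left out. Or2w6 kept its call only without saline replicate 1 (0.0308) or saline replicate 3 (0.0340).

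Myelin genes stood as a group above 0 without a call. All 14 measured of 16 were above 0, against 53.2% of all genes, with a median of 0.37 (range 0.16 to 1.26), and the groups did not overlap for 10, against 16.8% of genes. At an unadjusted p under 0.05, 4 were higher, against 4.56% of all genes. The mean level of the list was 1.79, 2.04 and 1.75 on the MCI-186 arrays and 1.33, 1.27 and 1.52 on the saline arrays. Mag, an adhesion protein of the inner myelin wrap, had levels of 3.23, 3.25 and 3.25 in MCI-186 controls and 2.58, 2.60 and 2.66 in saline controls (0.63 ± 0.30, adjusted p = 0.615). Klk6, a protease of oligodendrocytes, had levels of -1.09, -1.15 and -1.30, against -2.24, -2.48 and -2.49 in saline controls (1.22 ± 0.43, adjusted p = 0.396). In both, the 3 arrays of each group lay close together and the groups did not overlap. In the fit to the 6 control arrays alone the errors were 0.10 for Klk6 and 0.06 for Mag. There Klk6 (adjusted p = 0.0176) and Mag (adjusted p = 0.0267) were called.

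Mbp, which compacts the myelin membrane, differed by 0.16 ± 0.35 and Mog, on its outer surface, by 0.28 ± 0.42, both less than their errors. Those errors draw on the spread of the injured pups too. Ugt8, which makes the myelin lipid galactosylceramide, owed its difference of 1.26 ± 0.55 largely to MCI-186 replicate 2, at 0.18 beside -2.20 and -2.26. Of the 7 measured oligodendrocyte progenitor genes the median was 0.04, and 3 were higher at an unadjusted p under 0.05, against 4.56% of all genes. They were led by Sox10, the transcription factor of the whole lineage, with levels of 2.05, 2.11 and 2.04 in MCI-186 controls and 1.53, 1.40 and 1.40 in saline controls (0.62 ± 0.11, adjusted p = 0.0884, and 0.0469 in the fit to the control arrays alone). Olig1 differed by 0.32 ± 0.11 and Neu4, a sialidase, by 0.28 ± 0.09.

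**Figure D3:**
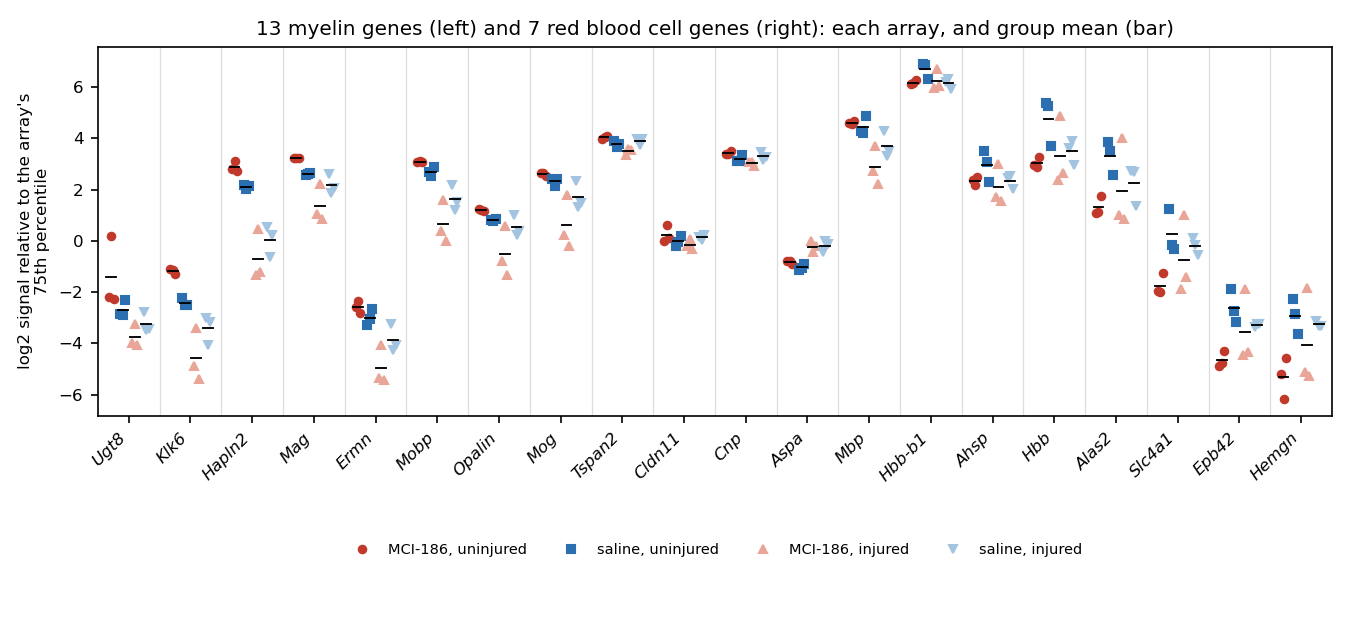
Log2 signal relative to the array's 75th percentile (vertical axis) of 13 of the 14 measured myelin genes (left) and 7 red blood cell genes (right) on every array. Points are single arrays, 3 per group, and bars are group means. In uninjured cortex the MCI-186 means lie above the saline means for all the myelin genes drawn and below them for all 7 red blood cell genes, and 1 injured MCI-186 array stands with the saline controls in the red blood cell genes.

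The antioxidant genes that the drug class brings to mind were close to level. Of 27 measured superoxide and peroxide enzymes 0 were called, with a median difference of 0.05, and 17 lay above 0, against 53.2% of all genes. At an unadjusted p under 0.05, 1 was higher and 1 lower, against 4.56% and 3.50% of all genes. Prdx1, a peroxiredoxin, had levels of 3.76, 3.76 and 3.82 in MCI-186 controls and 3.42, 3.24 and 3.51 in saline controls (0.39 ± 0.13, adjusted p = 0.371). Cat, catalase, had levels of -1.18, -1.24 and -1.09, against -0.91, -0.98 and -0.70 in saline controls (-0.30 ± 0.12, adjusted p = 0.459). Of 21 NRF2 targets and glutathione genes 0 were called, with a median of 0.07, 15 above 0, and differences between -0.08 and 0.40. Gstp1, a glutathione transferase, differed by 0.36 ± 0.15 (adjusted p = 0.529), with saline replicate 3 at 4.07 below the other saline arrays at 4.55 and 4.54. Me1, which supplies NADPH, differed by 0.15 ± 0.09 and Mgst1, a membrane-bound transferase, by 0.40 ± 0.33. The NADPH oxidase and nitric oxide synthase list had a median of -0.10 over 5 measured genes, and the heat shock list -0.02 over 14, with 0 called in either.

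Lists tied to the handling and state of the animal showed smaller shifts. Of 13 measured glucocorticoid-responsive genes, 10 were below 0, against 46.8% of all genes, with a median of -0.20. At an unadjusted p under 0.05, 3 were lower, against 3.50% of all genes, and 1 was higher, against 4.56%. Tsc22d3, a direct target of the glucocorticoid receptor, had levels of 2.95, 3.08 and 2.98 in MCI-186 controls and 3.40, 3.35 and 3.66 in saline controls (-0.46 ± 0.16, adjusted p = 0.406). Ddit4, a stress-induced inhibitor of mTORC1, differed by -0.44 ± 0.15, and Cdkn1a, a cell cycle inhibitor, by 0.48 ± 0.14 (adjusted p = 0.279). Among 15 clock genes Nfil3, a repressor of clock output, had levels of -0.67, -0.67 and -0.76 in MCI-186 controls and -1.24, -1.22 and -1.12 in saline controls (0.49 ± 0.09, adjusted p = 0.0884). Cry1 differed by 0.32 ± 0.10 and Per1 by 0.31 ± 0.21, and the list's median was -0.02. Of 19 cholesterol synthesis genes 18 were above 0, against 53.2% of all genes, none was called, and the median was 0.11.

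**Figure D4:**
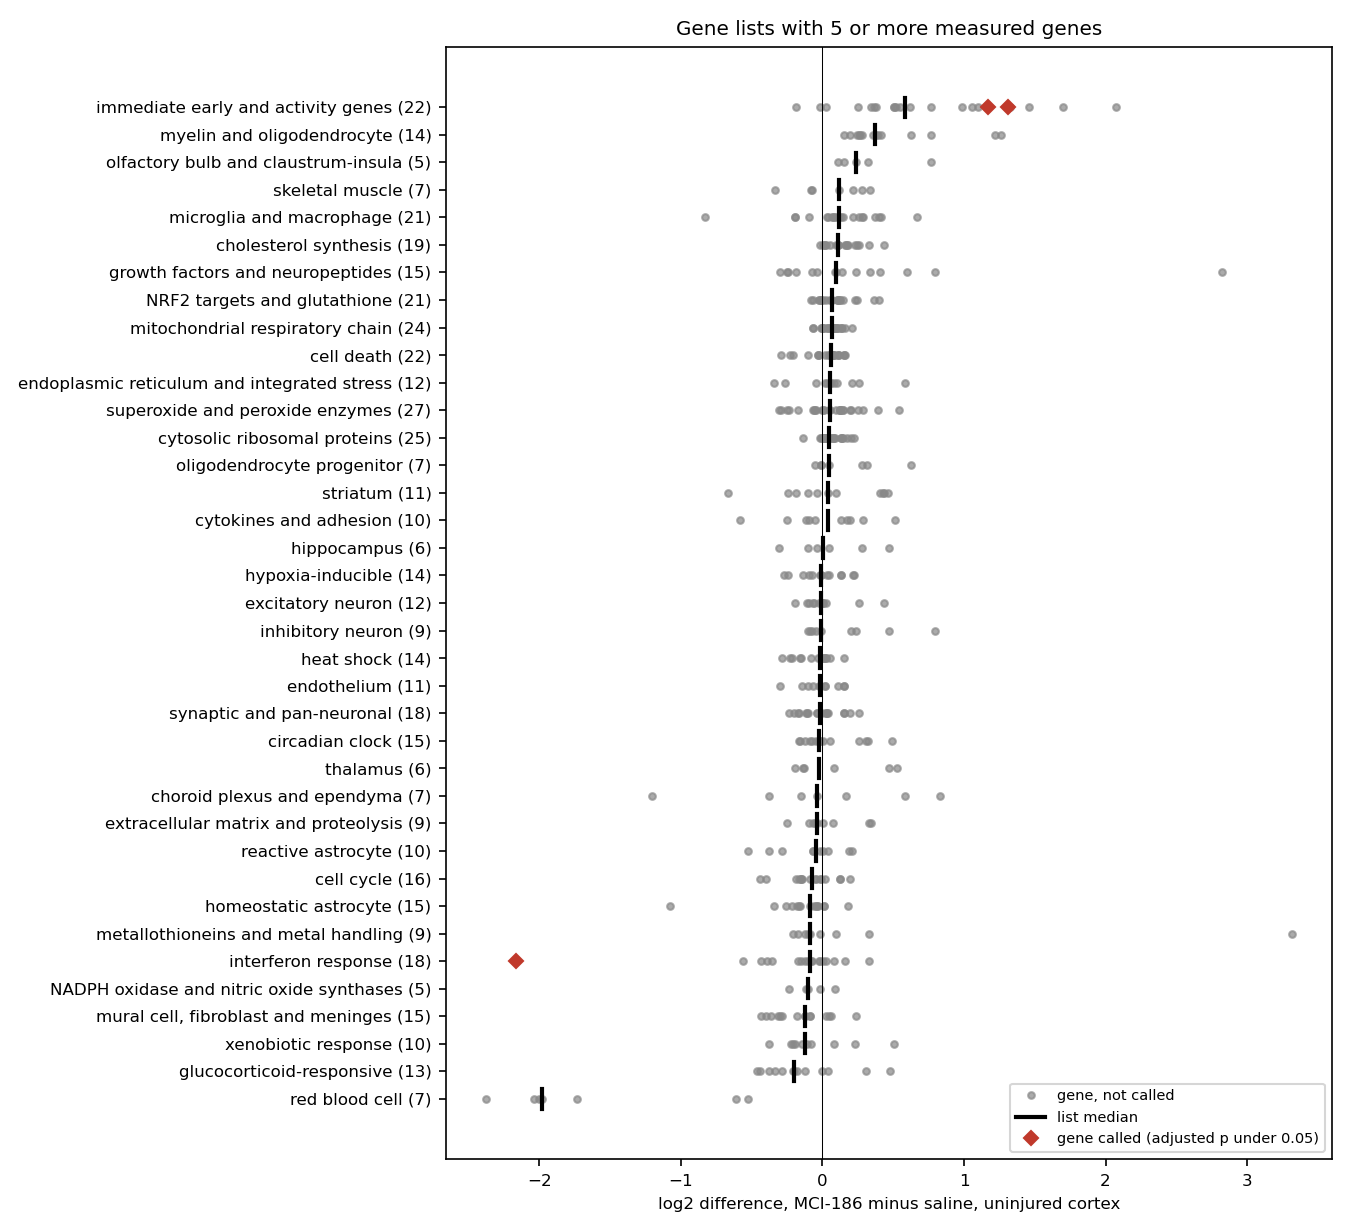
Log2 difference between MCI-186 and saline in uninjured cortex (horizontal axis) for the genes of each list with 5 or more measured genes, the number of which stands in brackets. Grey points are genes not called, red diamonds called genes, and black bars list medians. The immediate early and myelin lists have the highest medians (0.58 and 0.37), and the red blood cell list the lowest (-1.98).

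Among the other cell type lists with 5 or more measured genes, medians ran from -0.12 for mural cells, fibroblasts and meninges to 0.12 for skeletal muscle, apart from 0.24 over 5 olfactory bulb and claustrum genes. The synaptic and pan-neuronal median was -0.02 over 18 genes, the microglia and macrophage median 0.12 over 21, the endothelial median -0.02 over 11 and the homeostatic astrocyte median -0.09 over 15. Some single markers stood out from their lists. The inhibitory neuron list, which holds Sst, had a median of -0.01 over 9 genes, with 4 above 0. The reactive astrocyte list, which holds Gfap, had a median of -0.04 over 10 genes, with 4 above 0, against 53.2% of all genes. Sst, the peptide of a class of inhibitory interneurons, had levels of 4.74, 5.31 and 5.38 in MCI-186 controls and 4.51, 4.32 and 4.22 in saline controls (0.79 ± 0.20, adjusted p = 0.214). Gfap, the astrocyte filament, had levels of -1.86, -1.90 and -1.84, against -1.37, -1.42 and -1.22 in saline controls (-0.53 ± 0.20, adjusted p = 0.459). Aqp1, the water channel of choroid plexus that red cells also carry, had levels of -2.78, -3.02 and -2.63, against -1.05, -1.84 and -1.92 in saline controls (-1.20 ± 0.26, adjusted p = 0.135). The choroid plexus and ependyma list as a whole had a median of -0.04 over 7 genes, with differences up to 0.83. Its groups did not overlap for 2 genes that were higher and for 1 that was lower, against 16.8% and 11.4% of all genes. Cd74, a chaperone of antigen-presenting cells, differed by -0.83 ± 0.23 (adjusted p = 0.264). Tf, transferrin, had 1.29, 2.26 and -7.56 on the saline arrays, so its fitted difference of 3.32 ± 1.94 rests on saline replicate 3.

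The same contrast on injured cortex gave 0 calls among 8874 genes with limma, and 181 genes (2.04%) at an unadjusted p under 0.05. All 5 genes that rose in uninjured cortex had differences above 0 there (54.9% of all genes did): 0.61 ± 0.46 for Aipl1, 0.23 ± 0.25 for Ccn1, 0.22 ± 0.14 for Btg2, 0.22 ± 0.12 for Ier2 and 0.16 ± 0.12 for Gadd45g. Of the 10 that fell, 4 were below 0 in injured cortex, where 45.1% of all genes were. The test of the difference between the contrasts, injured minus uninjured, called 3 genes, 0.0338% of those tested. Among them were Asb5 (1.76 ± 0.22, adjusted p = 0.0379) and Aipl1 (-4.89 ± 0.65, adjusted p = 0.0416). Ier2 (-0.95, adjusted p = 0.168), Btg2 (-1.09, 0.228) and Ccn1 (-1.71, 0.344) did not pass it.

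The immediate early and red blood cell medians had the same sign in both arms and were nearer 0 in injured cortex, while the myelin median had the opposite sign. The immediate early median was 0.24 in injured cortex, and 7 of 22 members had an unadjusted p under 0.05 in the test of the difference, all below 0, against 2.02% of genes on that side. The red blood cell median was -0.25, and 0 of 7 members reached an unadjusted p under 0.05 in that test. All 14 myelin genes lay below 0 in injured cortex, with a median of -0.76 and 10 of them at an unadjusted p under 0.05, against 1.06% of genes. In the test of the difference 12 of 14 myelin genes had an unadjusted p under 0.05, and 0 passed after adjustment. Klk6, for example, differed by -1.14 ± 0.43 in injured and 1.22 ± 0.43 in uninjured cortex. The injured MCI-186 arrays had mean myelin levels of -0.06, 0.84 and -0.26, and the injured saline arrays 1.24, 0.57 and 0.84, a wider spread within groups than among the controls.

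**Figure D5:**
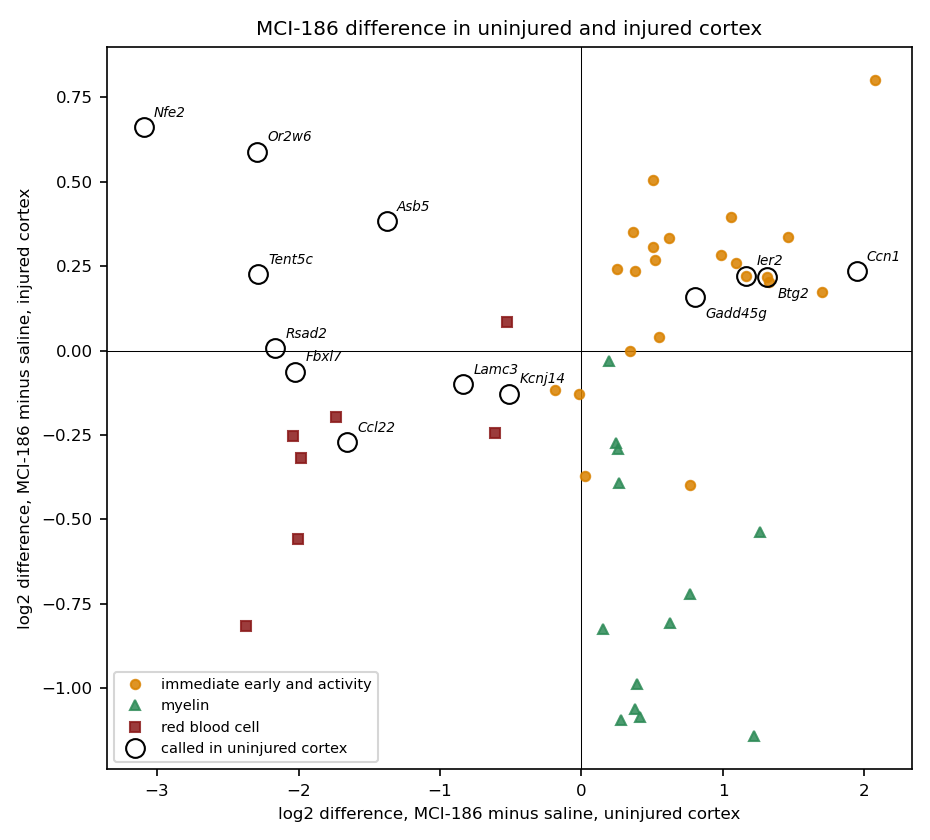
Log2 difference between MCI-186 and saline in uninjured cortex (horizontal axis) and in injured cortex (vertical axis, narrower scale) for the immediate early, red blood cell and 13 myelin genes and, circled, called genes other than Aipl1 (5.50 and 0.61). Each point is 1 gene. Most immediate early genes lie above 0 on both axes, myelin genes lie right of 0 and below it, and the called genes on the left are spread around 0 in injured cortex.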

How the data were processed

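Per the file headers, Agilent's Feature Extraction software, version 9.5.3.1, gave the deposited intensity of each spot, linear and already background-subtracted. The authors' own table of log2 values served as an alternative, and its columns had medians of -0.12 to 0.12. For probes well above background on every array, its columns correlated with the centred values computed here at 0.9998 or more. Without that restriction, which leaves dim probes in, the correlations were lower, at 0.9652 to 0.9936. How the authors made their table is stated in no source used here.

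Control and outlier spots were left out. Processed signals were divided by the array's 75th percentile, floored at 0.005 of it and log2-transformed, and spots of a probe were averaged. Of 41012 probes 15184 had 1 of 12206 symbols, through RefSeq accessions of GRCr8, and 27098 were kept as well above background. The brightest probe stood for each of 2079 genes with several. limma 3.58.1 in R 4.3.3 fitted 4 group means to all 12 arrays (8 residual and 2.71 prior degrees of freedom), with Benjamini-Hochberg adjustment over all features. Each SE comes from this fit and draws on the spread within all 4 groups, unless the fit to control arrays alone is named. The fit was tested on simulated data. A fold given as "at least" is the brighter group's mean against, on each array of the other group, the higher of the gene's signal and the lowest signal well above background. The number of arrays limits the precision. The members and gene lists were chosen with earlier results of these data known. Named genes were those called, up to 4 members per list with the lowest p, and examples of a list's range. Replicate numbers did not pair the arrays (correlations of deviations 0.05 to 0.10). Some genes that enter the counts are not reported here.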

Additional observations from a re-analysis of the deposited data

Results flagged for a closer look

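The MCI-186 difference itself differed between injured and uninjured cortex by the interaction test of limma, given as injured minus uninjured, for Asb5 and Aipl1 among others. Asb5 differed by 1.76 (adjusted p = 0.0379), with 0.38 ± 0.16 in injured and -1.38 ± 0.16 in uninjured cortex (SE, n = 3 per group). Asb5 was not well above background on any MCI-186 control array. With normexp background correction its difference between the contrasts was 0.46 (limma adjusted p = 0.986). With each of the 12 arrays left out in turn, Asb5 kept its call in 3 of the 12 fits. Aipl1 differed by -4.89 (adjusted p = 0.0416), with 0.61 ± 0.46 in injured and 5.50 ± 0.46 in uninjured cortex. It kept its call in 1 of 12 such fits, the one without injured MCI-186 replicate 3 (0.000591), the array with the highest Aipl1 level in its group.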

How the results depend on the processing

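Under the alternatives run, no called gene changed direction, nor did the medians of the 6 lists named below. Of the other medians given, those near 0 changed sign with 1 array left out. The range was -0.08 to 0.02 for clock genes, -0.05 to 0.02 for heat shock and -0.04 to 0.01 for synaptic genes. It was -0.03 to 0.01 for endothelium, -0.02 to 0.18 for skeletal muscle and -0.12 to 0.06 for choroid plexus and ependyma. Inhibitory neuron genes ranged from -0.01 to 0.05 and reactive astrocyte genes from -0.07 to 0.01. Genes called lower numbered 10 as reported and 2 with normexp background correction (which used the median foreground signal, as the mean is not among the columns), 4 with probes well above background on all 6 control arrays, and 6 with the replicate block, and 4 to 13 with 1 array left out. Genes called higher numbered 5 and came to 16 in the fit to the 6 control arrays, 8 with no filter on dim probes, 8 with trend and robust moderation and 3 with probes above background on all 6 control arrays, and 3 to 5 with 1 array left out. The interaction, with 2 genes higher and 1 lower, gave 1 and 0 with the replicate block, with no filter and with the filter on all 6 control arrays. It gave 0 higher with normexp, 1 higher with the least bright probe or with trend and robust moderation, and 0 lower with the authors' value table or the filter over any of the 4 groups. With 1 array left out it gave 1 to 4 higher and 0 to 6 lower, the 6 without injured MCI-186 replicate 2. The calls of Aipl1, Btg2, Ccn1, Ier2 and Rsad2 were kept with normexp, and 9 genes had adjusted p of 0.0636 to 0.415. The injured contrast gave 0 calls under all of them. The median of the red blood cell list was -1.08 with normexp and ranged from -2.29 to -1.50 with 1 array left out. Medians with 1 array left out ranged from 0.57 to 0.74 for immediate early genes, 0.29 to 0.41 for myelin, 0.02 to 0.11 for superoxide and peroxide enzymes, 0.06 to 0.08 for NRF2 targets and -0.25 to -0.15 for glucocorticoid-responsive genes. The replicate numbers did not pair the arrays, and 10 of the 15 calls were kept with the replicate block. Genes not well above background in 1 group are limited by dim signal.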

Other observations

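The fit to the 6 control arrays alone called genes outside the lists described above, named here after their values were seen. Slc4a2, an anion exchanger, was higher in MCI-186 controls by 0.60 ± 0.06 (adjusted p = 0.0424), and Xab2, a splicing and DNA repair factor, by 0.63 ± 0.06 (0.0267). Traf6, an adaptor of innate immune receptors, was lower by 0.68 on the log2 scale (-0.68 ± 0.07, adjusted p = 0.0410), and Serpinf2, the main plasmin inhibitor, by 0.85 (-0.85 ± 0.07, adjusted p = 0.0215). None of these 4 passed in the fit to all 12 arrays.

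Of the 18 called probes without a gene name, 16 were lower. The lowest adjusted p of all features belonged to A_44_P432843, at -7.33, -7.32 and -7.59 in MCI-186 controls and -3.49, -3.19 and -3.61 in saline controls. It was not well above background on any MCI-186 control or injured array, and its fall was at least 4.26-fold (adjusted p = 6.73e-08). Its injured arrays lay at or near the signal floor, at -7.64 on average with MCI-186 and -7.62 with saline. Their standard deviations were thus 0 and 0.04, against 0.15 in MCI-186 controls and 0.22 in saline controls. The limma fit pools the spread of all groups, so this adjusted p does not measure spread between pups alone. A_42_P577482 was at -1.13, -1.32 and -0.96, against 1.91, 1.52 and 1.15 in saline controls (-2.67 ± 0.25, adjusted p = 0.00207), with the injured arrays beside the saline controls. Of the 2 that were higher, A_44_P145835 was not well above background on any saline control array. Its rise was at least 5.97-fold (fitted difference 3.24 ± 0.50). The other, A_44_P270169, differed by 0.98 ± 0.14.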
